A study of Mus musculus with 18 samples.

Results

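The genes described here are Bex1, Bex2, Bex4 and Uchl1, taken as every probe set that the array annotation assigns to exactly 1 symbol among these names. The search found 4 probe sets, 1 for each gene, among 45037 probe sets in all (18193 genes). They were picked from these same arrays under the description of short, abundant neuronal messages among the largest falls in immunoprecipitated RNA. That description is no finding here, and it does not hold for all 4: Bex1 was higher in the immunoprecipitate and the groups overlapped for Bex4. Message length was not measured. The difference between the groups, on which the genes were picked, is given for them as a description, without a test.

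The study profiled brains of BAC transgenic mice (strain C57BL/6J X DBA/2J), in which regulatory sequence of the orexin gene drives a flag-tagged rat poly(A)-binding protein together with eGFP. The IP group (9 arrays) holds polyA RNA that was crosslinked by formaldehyde perfusion and captured with the tagged protein on anti-flag beads, and the WB group (9 arrays) holds total RNA of whole brain from transgenic mice. The labels give the same fixation protocol for both groups and ages of 11 and 14 weeks, not assigned to single samples, and 5 ng of RNA was amplified for each array. The labels do not say how many animals gave each sample, so a p-value reflects only how much these samples vary, part of which may be technical, and precision is limited by having 9 arrays a group. Values are probe set intensities, shown as deposited or as log2(intensity + 16). A probe set's brightness depends on its probes, so levels are compared between groups and not between genes.

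Bex genes ("brain expressed, X-linked") encode small, largely disordered proteins that are plentiful in neurons. Bex1 and Bex3 are known to bind the intracellular part of Ngfr, the p75 neurotrophin receptor, and the genes lie in a cluster with the related Tceal genes on the X chromosome. Uchl1, also known as PGP9.5, encodes a ubiquitin C-terminal hydrolase that is among the most abundant proteins of neurons, frees ubiquitin from small adducts and stabilises the free monomer. Uchl1 is widely used as a marker of neurons and neuroendocrine cells.

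The promoters of Bex2 and Uchl1, the members that were low in IP, are shown because the values below set these genes apart from Bex1 and Bex4. The sequences come from RefSeq (GRCm38.p6), as 250 bases before and 50 after each annotated start. The lines give the 30 bases just before the start of Bex2 (chrX:136068237-136068266, minus strand) and of Uchl1 (chr5:66676091-66676120, plus strand).
Bex2: ggtgagcactggcggcggggaggcgggggc
Uchl1: ttggcttgtaccattctgtgcggtgcatgg
The 300-base promoters of these genes shared no run longer than 9 bases. On either strand of them, GGGCGG, the core of a GC box, occurred 1 time in Bex2, overlapping its start, and 0 times in Uchl1, and was present in 35.7% of all 32851 promoters in the table. TATAAA and CCAAT each occurred 1 time in Bex2, at -213 and -68 from its start and both on the strand opposite to the gene. They occurred 0 times in Uchl1, against 13.6% and 37.4% of all promoters. TGACG, part of the cyclic AMP response element, occurred 1 time in Bex2, at -47, and 0 times in Uchl1. It was in 20.8% of all promoters. CACGTG, an E-box, occurred 0 times in both (7.15% of all promoters), which says only that these letters are not in these windows. These matches describe the letters and not binding. Within the table of genes the Bex1, Bex2 and Bex4 loci spanned 1542, 1672 and 1448 bases, introns included, and the Uchl1 locus 11114 bases.

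Markers of all the brain cell types listed were measured in both groups, and the IP arrays varied more than the WB arrays. The median correlation of an array with the others of its group was 0.825 to 0.863 in IP and 0.934 to 0.944 in WB. Hcrt, which encodes orexin, showed no called difference (limma adjusted p = 0.568). Of 7 neuronal markers 4 rose and 3 fell, where 21.7% of all genes were called in each direction. Their summed intensity was 89941 to 162772 in IP and 73248 to 99630 in WB. Such a sum follows its brightest markers. The neuronal sums overlapped, and those of the 5 cell types that follow did not. Of 5 astrocyte markers 3 rose and 1 fell (sums of 31367 to 62325 in IP and 16452 to 22551 in WB). Of 4 oligodendrocyte markers 2 rose and 1 fell (39806 to 97473 and 20648 to 30639), and of 5 microglial markers 1 rose and 3 fell (3626 to 8188 and 2019 to 3580). The microglial sums were thus higher in IP though most of these markers fell, with Csf1r, the brightest, at a median of 5147 in IP and 1606 in WB. Of 5 endothelial markers 0 rose and 4 fell (733 to 1359 in IP and 1683 to 2067 in WB), and of 4 red blood cell markers 0 rose and 3 fell (298 to 1282 and 5089 to 16262). The Gapdh controls differed between their 3' and 5' probe sets by 3.33 to 5.45 in IP and by 1.33 to 1.78 in WB (log2), and those for 18S rRNA by 2.45 to 3.50 in IP and by 0.25 to 0.51 in WB, whereas the Actb controls differed by -1.31 to 0.00088 in IP and by -0.23 to 0.03 in WB. Hybridization controls, bacterial and phage transcripts added before hybridization, averaged 13.69 to 15.31 in IP and 13.05 to 13.54 in WB (log2). They were highest on IP replicates 2, 5, 6 and 8, at 14.50 to 15.31 against 13.69 to 13.94 on the other 5 IP arrays. The part of cell mixture, RNA integrity and these controls in the results that follow was not tested, and in such bulk samples fewer cells of a type and less RNA per cell cannot be told apart.

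Bex2, a small Bex protein implicated in cell survival and transcription, was the member with the lowest value in IP relative to WB. Its intensity in IP was 10.2 at the lowest (replicate 8), 111 at the median and 389 at the highest (replicate 4), and in WB it was 1709, 2439 and 2981. All 9 IP arrays lay below all 9 WB arrays, and the highest IP array was still far under the lowest WB array. On the log2 scale the mean was 6.75 ± 1.38 in IP and 11.27 ± 0.25 in WB (SD, n = 9 each), a difference of -4.51 (SE 0.40) or 22.8-fold. Among the 18193 genes, each by its brightest probe set, only 1 had a lower fitted difference, a rank that describes the contrast Bex2 was picked on. On 5 of the 9 IP arrays Bex2 was at or below the brightest trpn probe set of that array, a control for a bacterial transcript that mouse RNA lacks, so the size of the fold, and with it the rank, is uncertain. The difference was -4.90 with a pseudocount of 1 and -3.89 with 64.

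Uchl1 was also lower in IP. Its intensity in IP was 29.7 at the lowest (replicate 8), 167 at the median and 312 at the highest (replicate 1), and in WB it was 1228, 1543 and 2172. The groups did not overlap. The log2 mean was 7.39 ± 0.93 in IP and 10.69 ± 0.28 in WB (SD, n = 9 each), and 29 genes had a lower difference than that of Uchl1, which was -3.30 (SE 0.29). On 2 of the 9 IP arrays Uchl1 was at or below the brightest trpn probe set, so the size of its difference is also uncertain. It was -3.46 with a pseudocount of 1 and -2.93 with 64. For every member, 0 WB arrays were at or below that probe set. In deposited intensity, Uchl1 spanned 10.5-fold and Bex2 38.2-fold from the lowest to the highest IP array, while in WB these spans were 1.77-fold and 1.74-fold. The lowest IP value of Bex2 was under the brightest trpn probe set of its array. That of Uchl1, 29.7, lay within the range of these probe sets over the IP arrays (28.3 to 146). The size of both IP spans is therefore uncertain.

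Bex1, the p75 receptor interactor, stood apart from these genes. Its intensity in IP was 26194 at the lowest (replicate 1), 34049 at the median and 51169 at the highest (replicate 5), and in WB it was 12147, 13455 and 15588. All 9 IP arrays lay above all 9 WB arrays. The log2 mean was 15.21 ± 0.39 in IP and 13.74 ± 0.14 in WB (SD, n = 9 each), a difference of 1.46 (SE 0.14) or 2.76-fold, and 1010 of the 18193 genes (5.55%) had a higher one. The size depended on the scaling: the difference was 0.33 with quantile normalization and 0.52 with arrays scaled on the hybridization controls.

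Bex4, a further gene of the family, lay at similar levels in both groups. Its intensity in IP was 610 at the lowest (replicate 3), 820 at the median and 1336 at the highest (replicate 2), and in WB it was 630, 784 and 968. The groups overlapped, with 3 IP arrays above all WB arrays and 1 below all of them. The log2 mean was 9.81 ± 0.39 in IP and 9.60 ± 0.21 in WB (SD, n = 9 each), a difference of 0.20 (95% confidence interval -0.14 to 0.54) that turned to -0.72 once the hybridization controls set the scale. It lay inside the distribution of all genes, of which 7225 had a higher and 10967 a lower difference.

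**Figure D1:**
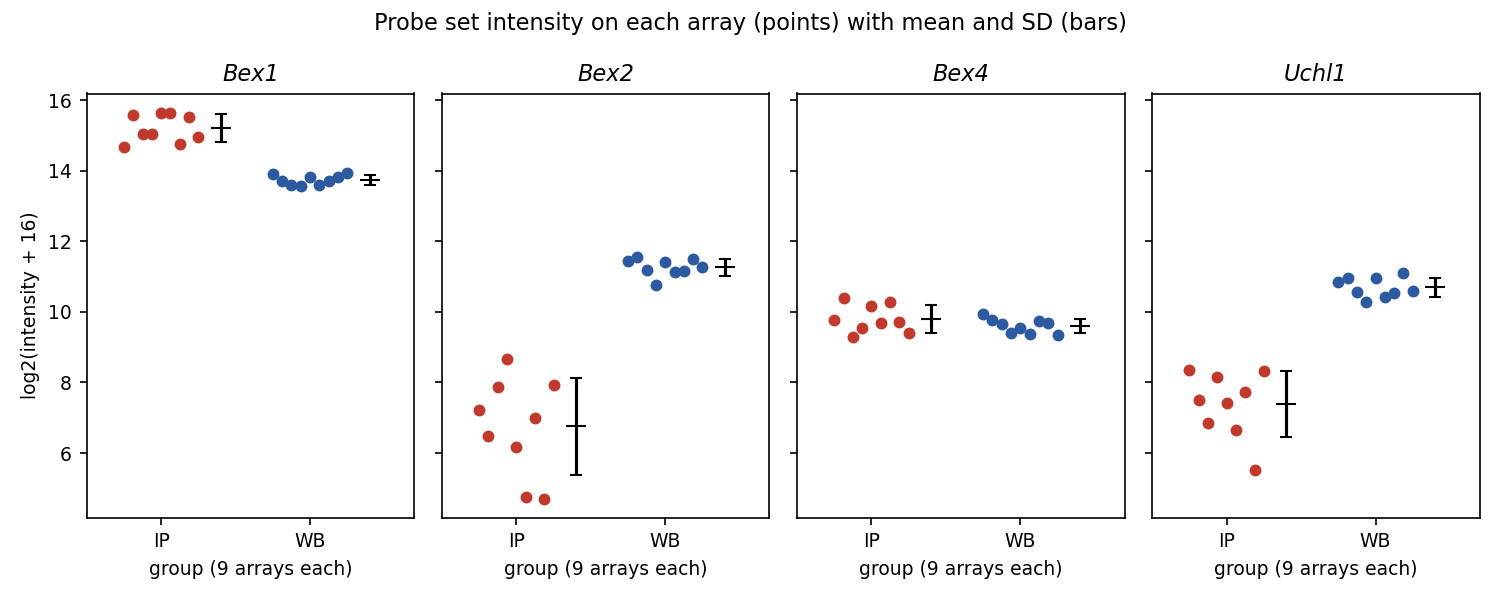
Log2(intensity + 16) of each member (vertical axis) on the 9 IP arrays (red points) and the 9 WB arrays (blue points), with the mean and SD of each group as black bars. Bex2 and Uchl1 are lower on all IP arrays than on any WB array, Bex1 is higher on all IP arrays, and the groups overlap for Bex4.

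Thus 2 members were below and 1 was above the other group on every array. Among all genes 6.72% had all IP arrays below all WB arrays and 9.22% had all IP arrays above, and 21.7% were called lower and 21.7% higher at limma adjusted p 0.05 (30.8% and 14.2% of all probe sets). Nothing is read from the members' count, since they were chosen on this contrast. The background itself moves with the scaling. Quantile normalization called 32.8% of genes higher and 16.2% lower. Centring arrays on their median called 39.0% higher and 11.4% lower, and the hybridization control scaling 5.44% higher and 54.2% lower. The median difference of all genes was 0.0041 as deposited and 0.29, 0.43 and -0.81 under these scalings. Relative to that median Bex2 lay between -4.74 and -4.46, Uchl1 between -3.39 and -3.31, Bex4 between 0.09 and 0.20, and Bex1 between 0.03 (quantile normalization) and 1.46. Bex2 was also lowest and Uchl1 next with quantile normalization, while the order of Bex1 and Bex4 turned. Median centring shifts all genes equally and cannot change an order. Scaling on the hybridization controls applies 1 factor to each array and can hardly do so, so neither tests the order.

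**Figure D2:**
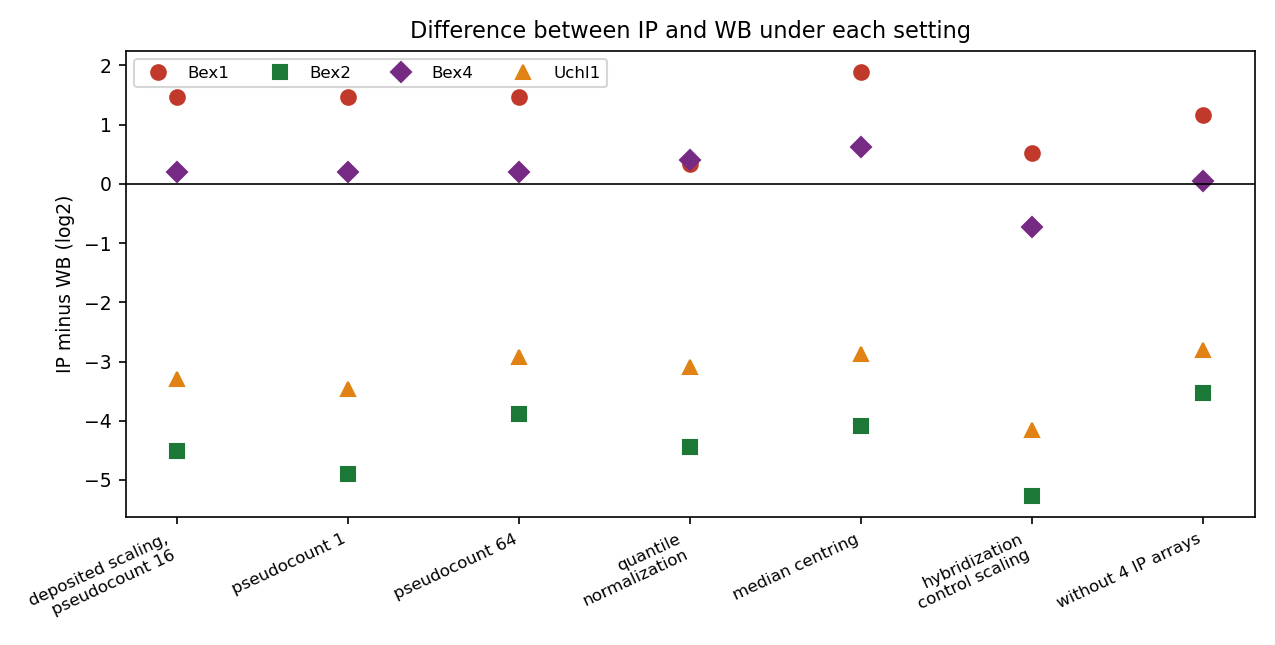
IP minus WB difference of each member (vertical axis, log2) under the deposited scaling and 6 other settings (horizontal axis). Bex2 and Uchl1 stay at or below -2.81 in all of them, Bex1 ranges from 0.33 to 1.89, and Bex4 turns negative (-0.72) with scaling on the hybridization controls.

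Within the IP group, Bex1 and Bex2 followed the hybridization controls in opposite ways. On IP replicates 2, 5, 6 and 8, the arrays with the brightest controls, Bex1 was 46988 to 51169 against 26194 to 34049 on the other 5. On the same arrays Bex2 was 10.2 to 72.7 against 111 to 389. Neither range overlapped its counterpart. These 4 arrays were grouped after seeing the data. The share of all genes that split the same way was not counted, so nothing particular to Bex1 and Bex2 is read from this. For Uchl1 the ranges were 29.7 to 167 and 98.9 to 312, and for Bex4 801 to 1336 and 610 to 1231, so that both overlapped. Without these 4 arrays the differences were -3.53 for Bex2, -2.81 for Uchl1, 1.15 for Bex1 and 0.06 for Bex4.

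**Figure D3:**
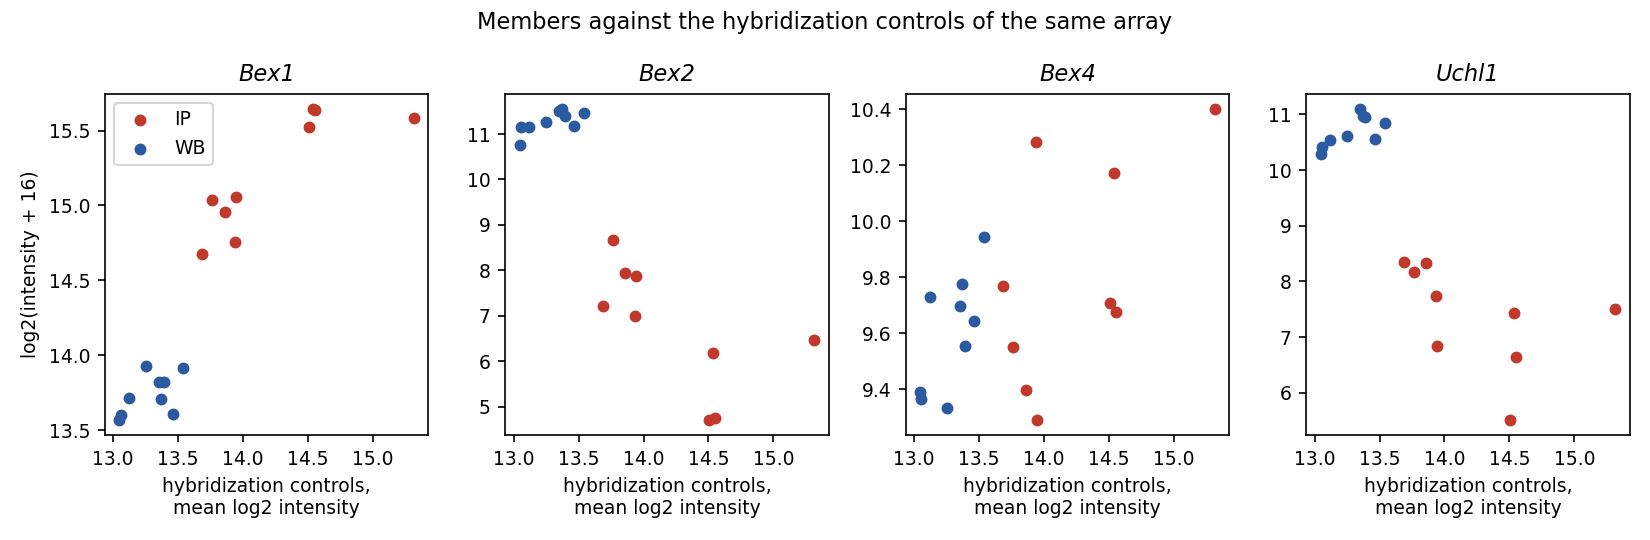
Log2(intensity + 16) of each member (vertical axes) against the mean log2 intensity of the hybridization controls on the same array (horizontal axes) for IP (red) and WB (blue). The 4 IP arrays with controls above 14.5 have the highest Bex1 and the lowest Bex2 values among the IP arrays.

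The spread within a group was not used to choose the members and could be tested. Bex2 and Uchl1 varied together across the 9 WB arrays (Pearson r = 0.92, exact permutation p = 0.00020, adjusted p = 0.0024; Spearman rho = 0.97, exact permutation p = 0.00017, adjusted p = 0.0020; two-sided). These are adjusted over 12 relations, the 6 pairs of members in each group. Replicates 1, 2, 5 and 8 were the 4 highest in both genes and replicate 4 the lowest in both. Without the 2 arrays farthest from the median of Bex2, r was 0.95. The pooled r spans a gap between these 4 arrays and the other 5. It ran from 1543 to 1816 in Uchl1 and from 2439 to 2689 in Bex2. Neither set is large enough for a value of its own. In Bex2 a wider gap, from 1709 to 2249, set replicate 4 apart from the other WB arrays. Without WB replicate 4, r was 0.94 (exact permutation, adjusted p = 0.0408). Arrays share 1 scaling, and in WB the hybridization controls also followed Bex2 (r = 0.72, n = 9) and Uchl1 (r = 0.70, n = 9). Among 18191 other genes 57 (0.313%) correlated with Uchl1 in WB as closely as Bex2 did. The adjusted p for the WB pair stayed between 0.0004 and 0.0349 over the other pseudocounts and scalings.

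In the IP arrays the same pair had r = 0.76 (exact permutation p = 0.0168, adjusted p = 0.101; rho = 0.73, exact permutation p = 0.0311, adjusted p = 0.124), which did not pass. Without the 2 arrays farthest from the Bex2 median r was 0.31, so the relation rests on those arrays, and without replicate 3 it was 0.89 (adjusted p = 0.0101). The pair passed with median centring (r = 0.73, exact permutation, adjusted p = 0.0479) and with scaling on the hybridization controls (r = 0.85, adjusted p = 0.0349), and over the 3 remaining settings its adjusted p was 0.0663 to 0.139. Replicate 8 was the lowest IP array in both genes. The 3 relations of Bex1 in IP count among the 12, and none passed (exact permutation, adjusted p = 0.138 with Bex2 and with Uchl1 and 0.522 with Bex4). No pooled r is given for them, because Bex1 fell into separate sets of 4 and 5 IP arrays, with nothing between 34049 and 46988. In the other 2 IP relations, Bex4 had r = -0.31 with Bex2 and 0.07 with Uchl1 (exact permutation, adjusted p = 0.503 and 0.861). In WB the remaining 5 pairs had r from 0.30 to 0.64, and none passed as deposited (exact permutation, adjusted p from 0.138 to 0.503). With median centring 4 of these 5 passed as well.

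**Figure D4:**
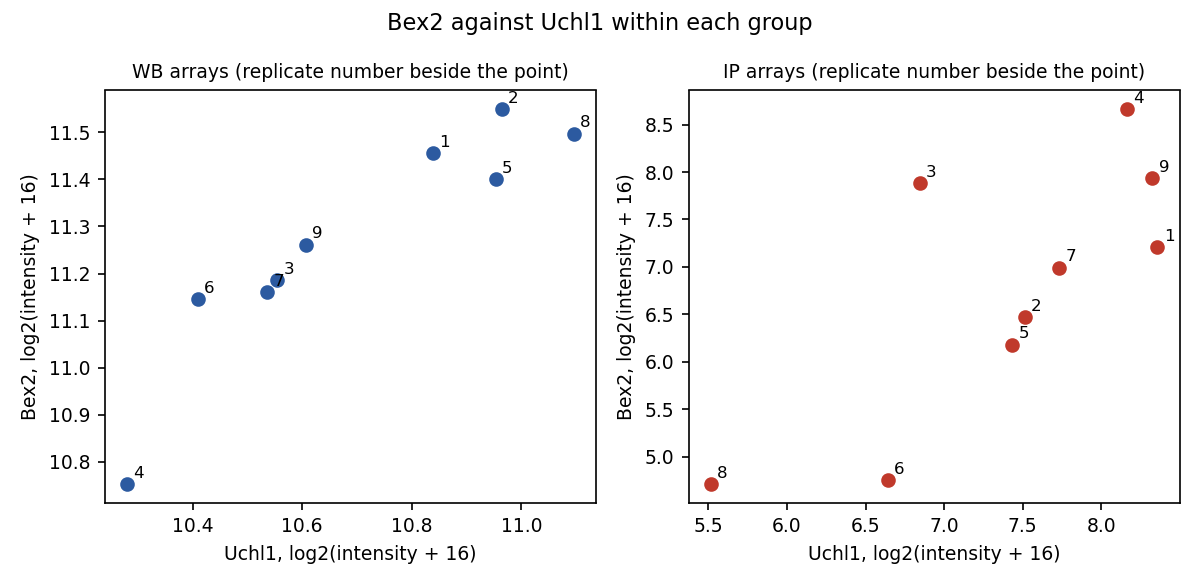
Bex2 (vertical axis) against Uchl1 (horizontal axis), both as log2(intensity + 16), on the 9 WB arrays (left, blue) and the 9 IP arrays (right, red), with the replicate number at each point. The WB points follow a rising line (r = 0.92) over a narrow range, and the IP points spread more widely (r = 0.76), with replicate 3 off the trend.

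The genes most alike in their deviations from the group means over the 18 arrays were different for each member. They were sought among 8772 other genes with a log2 mean of at least 8 in both groups, and the correlations describe these arrays only. Bex1 was nearest to Morf4l2, a chromatin-associated protein (r = 0.97), Olfm1, a secreted neuronal glycoprotein (r = 0.97), and Cox17, a copper chaperone of cytochrome oxidase (r = 0.97). All 3 were measured by probe sets of the _x_at or _s_at class, which may detect several transcripts, and rose 4.09-fold, 2.42-fold and 2.5-fold (limma adjusted p = 8.1e-12, 1.36e-07 and 6.9e-06). Cox17 did not pass with quantile normalization, and neither Olfm1 nor Cox17 passed as the mean over its probe sets. The r of these neighbours with Bex1 was 0.97 to 0.99 within IP and 0.79 to 0.94 within WB. In IP it spans the gap between the separate sets of 4 and 5 arrays into which Bex1 fell.

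Bex2 was nearest to Atp6v1h, a subunit of the vacuolar proton pump (r = 0.91), Synj2bp, a mitochondrial outer membrane protein (r = 0.91), and Tcea1, a transcription elongation factor (r = 0.89). Their differences were -2.31, -2.92 and -0.49 (limma adjusted p = 1.42e-08, 1.56e-09 and 0.0169). The call of Tcea1 was lost with median centring, without the 4 IP arrays of bright controls (-0.10, adjusted p = 0.430) and as the mean over its probe sets (-0.12, adjusted p = 0.556). Bex4 was nearest to Meis3, a homeobox factor (r = 0.84), Zdhhc8, a palmitoyltransferase (r = 0.81), and Zfp267 (r = 0.79), none of which passed as deposited (differences of -0.24, -0.29 and -0.32, adjusted p = 0.349, 0.207 and 0.246). All 3 were called lower with scaling on the hybridization controls, as were Meis3 and Zfp267 without the 4 IP arrays and Zdhhc8 and Zfp267 as means over their probe sets. Uchl1 was nearest to Tnnc1, a troponin (r = 0.88, difference -0.87, adjusted p = 0.0537), Slc30a9, of the zinc transporter family (r = 0.87, -1.01, adjusted p = 3.79e-05), and Lrfn5, a synaptic adhesion molecule (r = 0.86, -0.55, adjusted p = 0.00511). Lrfn5 did not pass with median centring or without the 4 IP arrays. Tnnc1 passed in 6 of 18 fits that left out 1 array. It also passed with the hybridization control scaling and with the filter on dim probe sets. For the neighbours of Bex2 and Uchl1 r was 0.91 to 0.94 within IP and 0.02 to 0.46 within WB. The neighbours were ranked over the 18 arrays together. Bex2 and Uchl1 had SDs of 1.38 and 0.93 in IP against 0.25 and 0.28 in WB. The ranking thus favoured likeness in IP, and nothing is read from the lower r in WB. On 5 of the 9 IP arrays Bex2 was at or below the brightest trpn probe set, and Uchl1 on 2, so part of this likeness concerns values near background.

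Around the members on the X chromosome, the neighbours of Bex2 and Bex1 differed between the groups by less than 1 on the log2 scale. In gene order the measured protein-coding genes ran Bex2, Nxf3, Bex4, Tceal8, Bex1, Tceal7, Tceal9 and Bex3. Bex3, the other p75-binding Bex protein, fell 1.44-fold (difference -0.53, SE 0.11, limma adjusted p = 0.000314), from 3111, 3846 and 4502 in WB (lowest, median and highest intensity) to 2215, 2644 and 3056 in IP, with no overlap. Tceal9 fell 1.41-fold (adjusted p = 0.00653) and Tceal7 rose 1.99-fold (adjusted p = 0.00864), both with overlap between the groups. Tceal8, with a difference of -0.16 (adjusted p = 0.441), and Nxf3, an mRNA export factor relative, with 0.62 (adjusted p = 0.201), did not pass. The calls of Bex3 and Tceal9 were lost with median centring (-0.10 and -0.070) and that of Tceal7 with scaling on the hybridization controls (0.14).

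**Figure D5:**
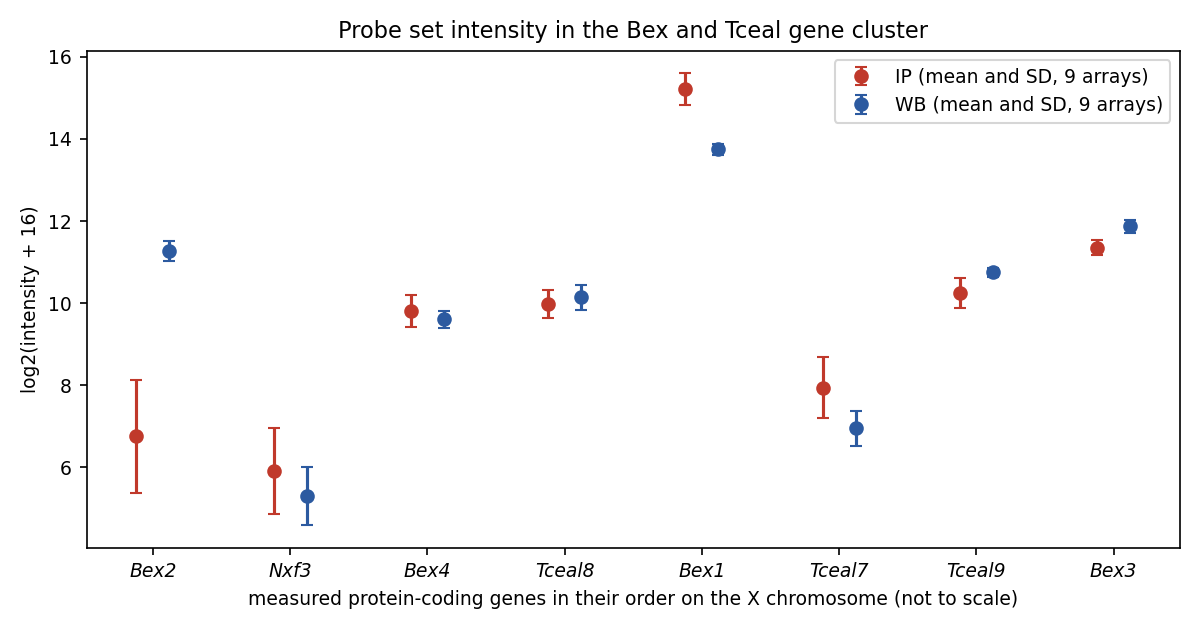
Mean log2(intensity + 16) with SD in IP (red) and WB (blue), 9 arrays each, for the measured protein-coding genes from Bex2 to Bex3 in their order on the X chromosome (horizontal axis, not to scale). Bex2 differs by -4.51 between the groups, Bex1 is higher in IP, and the other genes differ by less than 1; heights are not comparable between genes.

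In the wider list of BEX, TCEAL, ARMCX and GPRASP genes, relatives that share this part of the X chromosome or its gene family, 8 of 15 measured genes rose, 2 fell and 5 did not pass, where 21.7% of all genes were called in each direction. The list's median was 0.31, against 0.0041 over all genes. Relative to the median of all genes it lay at 0.30 as deposited and at only 0.03 with quantile normalization. Median centring shifts all genes equally and so gives 0.30 in any case. Scaling on the hybridization controls, with 1 factor for each array, gave 0.31 and is hardly a further check. Armcx2 and Armcx1, armadillo-repeat relatives of a family known at the mitochondrial outer membrane, rose most. Armcx2 went from 4987, 6121 and 7432 (lowest, median and highest) in WB to 22405, 26034 and 32974 in IP, a 4.33-fold rise (2.11, SE 0.11, limma adjusted p = 2.34e-13), and 2 of its 3 probe sets were higher. Armcx1 rose 3.5-fold (adjusted p = 4.42e-10), from 572, 799 and 966 to 1591, 3084 and 3593. In both genes all IP arrays were above all WB arrays, and both calls held under each scaling tried. The 2 genes that fell were Bex3 and Tceal9. With scaling on the hybridization controls 2 genes of the list were higher and 7 lower, where 5.44% and 54.2% of all genes were. With quantile normalization 6 were higher and 3 lower, where 32.8% and 16.2% of all genes were.

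Around Uchl1, other deubiquitinases went up and down. On the list 18 genes were measured, of which 7 rose, 8 fell and 3 did not pass (median -0.12), against 21.7% of all genes called in each direction. Ubb and Uchl3 had no probe set of their own symbol alone and are named only. Uchl5, a proteasome-bound relative of Uchl1, rose 1.24-fold (difference 0.32, SE 0.10, adjusted p = 0.0143) with both of its probe sets higher, but turned to -0.069 with quantile normalization and to -0.62 with scaling on the hybridization controls, and did not pass without the intensity trend (adjusted p = 0.0566). Usp14, which trims ubiquitin chains at the proteasome, rose 5.04-fold (adjusted p = 2.81e-12), from 1054, 1259 and 1609 in WB to 4632, 6501 and 10282 in IP, on 1 of its 4 probe sets. Usp7, which deubiquitinates p53 and its ligase, rose 3.19-fold and Otud5 rose 2.72-fold (adjusted p = 5.82e-11 and 5.3e-08). Usp7 had 2 probe sets higher and 4 lower, with a mean over them of -0.63, and the mean of Otud5 did not pass. Hybridization control scaling also ended the call of Otud5 (0.50, adjusted p = 0.0583). These probe sets of Usp14, Usp7 and Otud5, like those of Armcx2 and Ndn, are also of the _x_at or _s_at class.

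Otub1, which removes ubiquitin chains, fell 3.3-fold from 1052, 1353 and 1570 in WB to 208, 405 and 551 in IP, with both probe sets lower (-1.72, SE 0.17, limma adjusted p = 1.09e-08). Otub2, its relative, fell 3.12-fold (adjusted p = 2.89e-05), also on both probe sets, and Josd2, of the Josephin family, fell 2.84-fold (adjusted p = 0.000138). In all 3 genes the groups did not overlap. Josd2 in IP, at 12.6 to 136, lay under or within the range of the brightest trpn probe sets on IP arrays (28.3 to 146). The size of its fold is therefore uncertain. So is that of Otub2, which in IP was 63.8 at the lowest, 118 at the median and 348 at the highest. When a gene's probe sets were averaged, 4 members of the list were higher and 12 lower. The share of all genes called under this averaging was not counted, so nothing is read from these counts. Over all single probe sets 14.2% were higher and 30.8% lower.

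In neurotrophin receptor signalling, the pathway of Bex1 and Bex3, 3 of 11 measured genes rose, 3 fell and 5 did not pass (median -0.09), shares near the 21.7% of all genes called in each direction. Ngfr, the receptor itself, had intensities of 47.6, 321 and 426 in IP and of 114, 249 and 430 in WB. Its difference of -0.18 (SE 0.36) did not pass (adjusted p = 0.712) as deposited, though it was called lower when the hybridization controls set the scale (adjusted p = 0.0424), and the groups overlapped almost wholly. Maged1, also called NRAGE, another protein that binds this receptor, fell 5.53-fold (-2.47, SE 0.23, adjusted p = 2.67e-09), from 1480, 1741 and 2263 in WB to 102, 353 and 662 in IP. Ndn, the related imprinted protein necdin, rose 2.17-fold (adjusted p = 1.32e-06) with 5 of 8 probe sets higher, but did not pass with quantile normalization or with scaling on the hybridization controls.

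Among receptors and ligands, Ntrk3, the neurotrophin-3 receptor, fell 2.6-fold (adjusted p = 0.000195), with all 8 probe sets lower, and Lingo1, a p75 co-receptor, fell 1.52-fold (adjusted p = 0.00299) on 1 of 2 probe sets and not with median centring. Ntrk2, the BDNF receptor, rose 2.71-fold on its brightest probe set (adjusted p = 1.91e-08), yet 4 of its 8 probe sets were lower, and averaging all of them gave -0.75. Its call was lost with scaling on the hybridization controls (0.50, adjusted p = 0.0608). Bdnf rose 1.72-fold (adjusted p = 0.00076) on 1 probe set while the other fell, and turned to -0.12 with scaling on the hybridization controls. With that scaling 0 genes of the list were higher and 7 lower, where 5.44% and 54.2% of all genes were.

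Locus span was set against the difference over all genes, as a rough stand-in for shortness. Of 16468 genes with a RefSeq span, 647 spanned up to 2000 bases. Of these 16.1% were called lower and 11.1% higher, with a median difference of 0.02, against 22.4% and 22.6% over all genes with a span. The span counts introns and is no message length. The 3 Bex members in this class covered the range from -4.51 to 1.46.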

How the data were processed

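Per the submitters' processing notes, the authors made the deposited intensities with MAS5 (version not given in the sources used here). They are linear, and each array had a mean of 500 after trimming 2% of values at either end. Per the labels, 5 ng of RNA was amplified and biotin-labelled. Detection calls were not used here. Groups came from the titles.

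Leaving aside 64 array controls, log2(intensity + 16) was fitted for 45037 probe sets with limma 3.58.1 in R 4.3.3 (intensity trend, Benjamini-Hochberg). Folds between the groups are on that scale and understate changes of dim probe sets, whereas spans between arrays of a group are ratios of deposited intensities. A gene stands for its brightest probe set. Within-group correlations used exact permutation in Python 3.11.15 with numpy 2.4.6. The limma and correlation steps were tested on simulated data. Named were the members, up to 3 rises and 3 falls per list, 5 preset relatives and the 3 genes most alike to each member. Members and lists were chosen with earlier results of these data known. Alternatives were pseudocounts of 1 and 64, 3 other scalings, a filter, no trend, a replicate block, probe set means and leaving out arrays; dropping 4 IP arrays together was chosen after seeing the data. The planned grouping by protein length was not run, and gene span was used instead. Same-numbered IP and WB arrays did not deviate together (r from -0.05 to 0.08), which does not settle whether they are paired. A sequence result for Bex1 and Bex4 is not reported here.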

Additional observations from a re-analysis of the deposited data

Results flagged for a closer look

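For 3 genes, 1 array stood far from the rest of its group by Dixon's criterion, which chance meets in about 1 of 20 groups; 70 groups were examined. Bex2 was lowest on WB replicate 4, at 10.75 (log2) against 11.15 to 11.55 on the other WB arrays, and just past the criterion. Armcx1 was lowest on IP replicate 1, at 10.65 against 11.26 to 11.82. Josd2 was lowest on IP replicate 7, at 4.84 against 6.08 to 7.24. Leaving out any single array kept the difference of Bex2 between -4.75 and -4.26, that of Armcx1 between 1.75 and 1.91 and that of Josd2 between -1.59 and -1.29.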

How the results depend on the processing

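The differences of Bex2 and Uchl1 kept their sign under all alternatives run. With quantile normalization Bex1 was 0.33, 10869 probe sets were higher, against 6403 as deposited, and 5 deubiquitinase genes were lower. With median centring Bex1 was 1.89 and Bex4 0.63, 12802 probe sets were higher and 8322 lower (13854 as deposited), 0 BEX-related and 4 deubiquitinase genes were lower, and 6 of 12 correlations passed. With scaling on the hybridization controls Bex1 was 0.52, Bex4 -0.72 and Uchl1 -4.15, 1461 probe sets were higher and 28084 lower, the BEX-related list gave 2 higher and 7 lower, the deubiquitinase list 2 higher, the neurotrophin list 0 higher and 7 lower, and 2 correlations passed. Uchl5 was then -0.62 (-0.069 with quantile normalization) and Bdnf -0.12. With the mean over probe sets 4 deubiquitinase genes were higher, the neurotrophin list gave 1 higher and 5 lower, and Bdnf was -0.22, Ntrk2 -0.75 and Usp7 -0.63. The share of all genes called was not counted for that setting. Each member has 1 probe set, so this setting gives no value for them. Without the 4 IP arrays of bright controls Bex1 was 1.15. Leaving out 1 array at a time, Bex1 ranged from 1.41 to 1.53, Bex2 from -4.75 to -4.26, Bex4 from 0.13 to 0.27 and Uchl1 from -3.42 to -3.07, and 1 to 2 correlations passed. With the replicate block 6313 probe sets were higher and 13707 lower. The members' differences were the same, which a balanced block gives in any case. The titles do not say whether equal replicate numbers mark paired samples. The cause of these shifts was not tested. Of the other values for single genes and correlations, 989 kept their side of the threshold, 18 lost and 23 gained a call. Dim values, such as Bex2 in IP, have no detection call here.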
